A study of Mus musculus with 6 samples.

Results

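The transcripts of 8 genes that carry the insulin signal through the cell were followed in mouse dorsal skin. They are the receptors Insr and Igf1r, the adaptors Irs1 and Irs2, the regulatory subunit Pik3r1, the kinases Akt1 and Akt2, and the transcription factor Foxo1. They were chosen by name, with earlier results of these data known, from the 21959 genes of the deposited table. All 8 were among the 14875 genes with enough reads to be tested. Bulk RNA-seq had been made from full-thickness dorsal skin of wildtype male C57BL/6 mice, shaved at 7 weeks of age while the hair follicles were at rest. For 7 days, 3 mice received a daily topical vehicle of 30% dipropylene glycol in water and 3 mice received 3% rebamipide, a drug used to protect the gastric mucosa. Each library stands for 1 animal by the study's methods, and the comparison asks which transcripts differed after a week of rebamipide.

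Insulin and the insulin-like growth factors bind receptor tyrosine kinases, which phosphorylate the insulin receptor substrate (IRS) proteins. The IRS proteins recruit phosphoinositide 3-kinase (PI3K), whose lipid product brings AKT to the membrane, and AKT in turn phosphorylates FOXO transcription factors and holds them outside the nucleus. In fat cells the cascade drives glucose uptake and fat storage and restrains lipolysis, whereas in skin the IGF1 receptor also serves keratinocyte and hair follicle growth. The signal itself is carried by phosphorylation, which RNA-seq does not measure.

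The make-up of the samples differed beyond these genes. Sequencing depth was 38676018 to 39915276 counts per vehicle library and 32709801 to 34706852 per rebamipide library, and the mitochondrial genome supplied 2.59% to 5.36% and 13.28% to 21.96% of them, respectively. Of 12 adipocyte markers 8 were higher after rebamipide (edgeR, adjusted p under 0.05), and their summed level was 2244 to 6212 CPM (normalized counts, scaled by library total and edgeR's TMM factor) in vehicle libraries against 14317 to 27439 CPM in rebamipide libraries. Of 8 brown adipocyte markers 7 were higher (203 to 353 CPM against 5095 to 13118 CPM), and Ucp1, the defining uncoupling protein of brown fat, had 0 counts in every vehicle library. Summed basal keratinocyte markers ran the other way, from 2644 to 4331 CPM down to 224 to 1294 CPM, although none of the 8 passed the test. Growing hair follicle markers summed to 24635 and 13447 CPM in the first and second vehicle libraries, 273 CPM in the third vehicle library and 1065, 0.896 and 0.229 CPM in the rebamipide libraries, and the mice were labelled as shaved in the resting phase of the hair cycle. None of these 9 markers passed the test, nor did any of 8 suprabasal keratinocyte markers (1418 to 6502 CPM against 5.61 to 1626 CPM), 8 fibroblast markers (12351 to 18846 CPM against 1979 to 15846 CPM) or 8 leukocyte markers (380 to 881 CPM against 216 to 816 CPM). The third rebamipide library stood apart for skin tissue, with 0 counts of the basal keratin Krt14 against 6102 and 10954 in the remaining rebamipide libraries and 26099 to 64371 with vehicle. Endothelial markers (5 of 8 higher, 261 to 615 CPM against 1177 to 1656 CPM), red blood cell markers (3 of 5 higher, 42.4 to 200 CPM against 345 to 809 CPM) and slow muscle markers (3 of 5 higher, 1.88 to 13.2 CPM against 5.19 to 256 CPM) also moved. Fast skeletal muscle markers summed to between 321 and 41459 CPM without separating the groups. In whole skin, fewer cells of a type and less RNA per cell cannot be told apart, and the part of these shifts in the results below was not tested.

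After rebamipide, Akt2 and Irs2 transcripts were higher by 3.66-fold and 3.7-fold, and Igf1r transcripts fell to 0.414 of the vehicle level. The other 5 genes did not pass the test at an adjusted p of 0.05. Thus 2 of 8 genes were higher, where 14.1% of all tested genes were higher, and 1 of 8 was lower, where 6.51% of all tested genes were lower. In the same normalized CPM, all 3 rebamipide libraries lay above all 3 vehicle libraries for 5 genes, and below them for 1 gene. The same held for 24.5% and 24.0% of all tested genes. For Insr, Akt1 and Foxo1 this separation depended on the TMM factor. Their groups overlapped in FPKM, which are scaled by gene length and library total without that factor. Irs2 and Akt2 stayed above and Igf1r stayed below in FPKM too. The 8 genes had a median log2 change of 0.59, beside -0.17 over all tested genes. A count of 8 is small, and 1 gene more or fewer moves these shares widely.

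**Figure D1:**
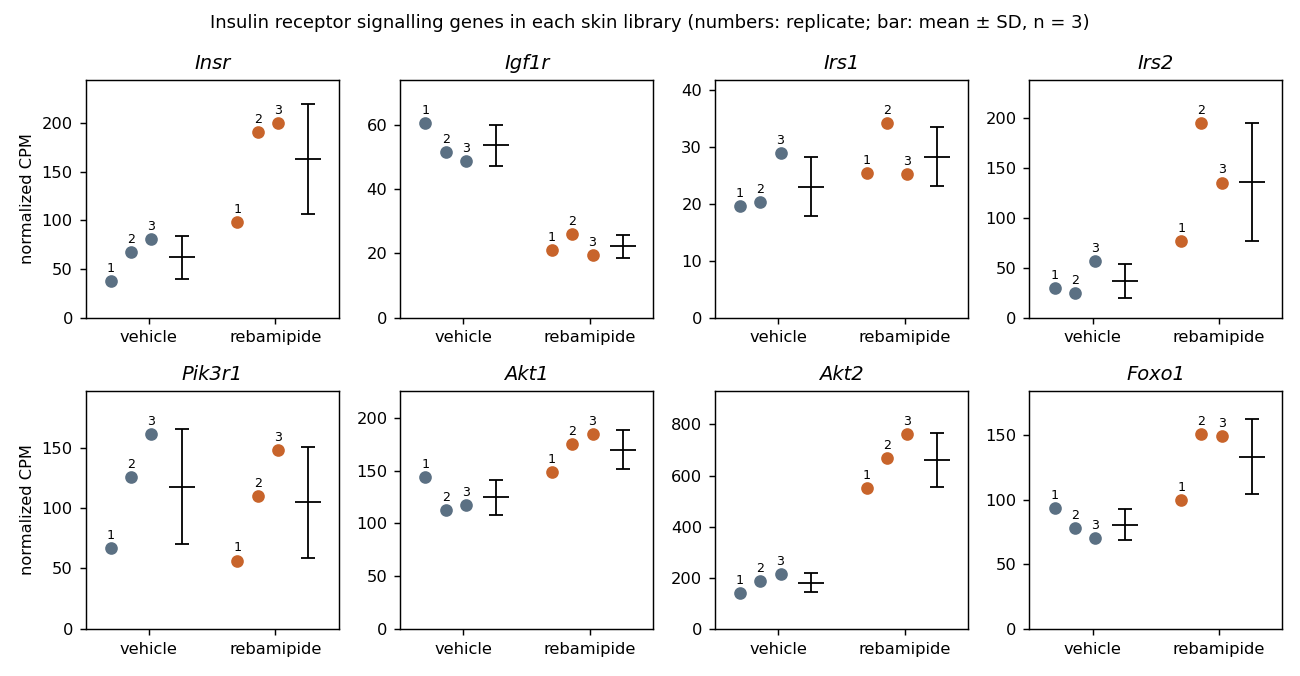
Normalized CPM of the 8 insulin receptor signalling genes (vertical axes, each from 0) in the 3 vehicle and 3 rebamipide libraries, with replicate numbers above the points and the mean ± SD (n = 3) beside them. Igf1r lies lower in all rebamipide libraries, Akt2 and Irs2 lie higher in all of them, and the groups overlap for Irs1 and Pik3r1.

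Of the receptors, Igf1r fell and Insr missed the threshold in the other direction. Insr, the insulin receptor (chromosome 8, 3172061 to 3329617, minus strand, in the positions of the deposited table), had 37.6, 67.1 and 80.9 normalized CPM in the vehicle libraries and 98.3, 190.1 and 200.2 in the rebamipide libraries. In FPKM the groups overlapped, with 6.64 in the first rebamipide library and 7.12 in the third vehicle library. In normalized CPM they did not overlap, but each spread widely, and the same libraries lay close to each other. The mean was 61.88 ± 22.15 in vehicle skin and 162.9 ± 56.18 in rebamipide-treated skin (SD, n = 3), a log2 difference of 1.40 (SE 0.398). The adjusted p-value was 0.0541 by edgeR's quasi-likelihood test, just outside the threshold, and 0.0167 by DESeq2, which the study itself used. DESeq2 lost the call without the second rebamipide library (1.29, adjusted p = 0.108) and without the third (1.26, adjusted p = 0.0534). Without the first rebamipide library, edgeR gave a log2 difference of 1.66 and an adjusted p-value of 0.0277, and without the third it gave 1.23 and 0.124. Insr was called in 9 alternatives and not called in 16. The 9 include edgeR with at least 10 counts in every library (1.32, adjusted p = 0.0428) and the study's thresholds.

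Igf1r, the receptor for the insulin-like growth factors (chromosome 7, 67602575 to 67883416, plus strand), had 60.8, 51.5 and 48.7 normalized CPM in vehicle skin and 21.0, 26.2 and 19.4 in rebamipide-treated skin. All 3 rebamipide values were far below the lowest vehicle value, and both groups were tight. The mean fell from 53.68 ± 6.302 to 22.21 ± 3.575 (SD, n = 3), a log2 difference of -1.27 (SE 0.203, edgeR adjusted p = 0.0133). The third rebamipide library did not decide this call, since without it the log2 difference was -1.18 with an adjusted p-value of 0.0478. The call was lost in edgeR without the second vehicle library (-1.33, adjusted p = 0.0747) and without the second rebamipide library (-1.40, adjusted p = 0.0591). Those fits left almost no calls in the whole table, with 0 genes at an adjusted p under 0.05 and 4116 at an unadjusted p under 0.05 in the first case, and 1 and 4062 in the second. DESeq2 called 4776 and 3450 genes in the same subsets, Igf1r among them. The hair follicle and keratinocyte markers were also lower on average with rebamipide, as given above, and their part was not tested.

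Because both receptor transcripts were read in the same library, their ratio does not depend on scaling between libraries. Counts per length of Insr were 0.755, 1.59 and 2.03 times those of Igf1r in vehicle skin and 5.71, 8.86 and 12.6 times in rebamipide-treated skin. Igf1r was thus the more abundant transcript in the first vehicle library, and Insr was in each of the other 5. On the log2 scale the mean ratio was 0.43 ± 0.74 and 3.1 ± 0.57 (SD, n = 3), which is a 6.39-fold difference between groups. The exact two-sided permutation test gave p = 0.1, the smallest value that 3 against 3 libraries allow, and 0.125 after adjustment over the 5 ratios computed here. As a share of the summed FPKM (reads scaled by gene length and library total) of both receptors, Insr made up 57.1% ± 13 in vehicle skin and 89.2% ± 3.8 in rebamipide-treated skin.

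Of the adaptors, Irs2 was higher after rebamipide and Irs1 overlapped between groups. Irs1 (chromosome 1, 82210822 to 82269137, minus strand) had 19.7, 20.4 and 29.0 normalized CPM in vehicle skin and 25.4, 34.3 and 25.2 in rebamipide-treated skin. The groups overlapped, and the log2 difference of 0.30 (SE 0.251, adjusted p = 0.405) did not pass the test. Scaling by total counts alone gave -0.33 and lowers all genes alike. Irs1 lay 0.45 to 0.51 above the median of all genes under 6 scalings, which is no test of a change. Irs2 (chromosome 8, 11034681 to 11058458, minus strand), an adaptor prominent in liver and other metabolic tissues, had 29.3, 24.7 and 56.3 normalized CPM in vehicle skin and 76.9, 195.3 and 135.3 in rebamipide-treated skin. Every rebamipide value was above every vehicle value, with the second rebamipide library highest. The mean rose from 36.76 ± 17.07 to 135.8 ± 59.24 (SD, n = 3), a log2 difference of 1.89 (SE 0.464, adjusted p = 0.0379). This call was lost without the first or second vehicle library (adjusted p = 0.106 and 0.139), without the second or the third rebamipide library (0.129 and 0.0744), with scaling by total counts alone (1.23, adjusted p = 0.0592) or nuclear total counts alone (1.47, adjusted p = 0.0508), and with a fast muscle score as covariate (1.83, adjusted p = 0.0632). A replicate block also lost it (1.87, adjusted p = 0.066), although same-numbered libraries share only a number. DESeq2 lost it without the second rebamipide library (1.54, adjusted p = 0.0523). The difference ranged from 1.14 to 2.35 over 24 alternative fits and was positive in all of them.

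Irs2 is known as a gene that FOXO factors and E-box binding factors can induce in fasted liver, so the promoters of both adaptors were read next to each other. The stretch of 250 bases before the RefSeq start of each gene is given here 5′ to 3′ in the gene's direction, from the mouse build GRCm38.p6, at chr1:82291440-82291689 (minus strand) for Irs1 and chr8:11008930-11009179 (minus strand) for Irs2. Capitals mark the E-box CACGTG and the insulin response element TGTTTTG.
Irs1: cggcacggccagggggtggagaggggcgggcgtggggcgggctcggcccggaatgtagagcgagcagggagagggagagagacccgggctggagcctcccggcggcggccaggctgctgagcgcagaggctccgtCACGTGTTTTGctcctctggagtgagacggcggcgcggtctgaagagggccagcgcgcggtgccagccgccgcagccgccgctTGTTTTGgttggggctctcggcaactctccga
Irs2: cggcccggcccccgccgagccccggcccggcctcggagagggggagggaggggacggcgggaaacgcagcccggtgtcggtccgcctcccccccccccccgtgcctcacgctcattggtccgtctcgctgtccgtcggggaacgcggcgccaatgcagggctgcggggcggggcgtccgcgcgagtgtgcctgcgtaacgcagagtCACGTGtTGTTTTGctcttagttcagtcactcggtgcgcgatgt
In Irs2 the E-box began 44 bases and the TGTTTTG 37 bases before the start, with 1 base between them. In Irs1 the E-box began 115 bases before the start and ran into an insulin response element at 111 bases, which shares letters with it, and a further copy of that element began 32 bases before the start. Irs1 and Irs2 were the only genes among the 7 of 8 with a promoter entry (12 entries in all) that held CACGTG or TGTTTTG on either strand, the reverse of the latter being CAAAACA. Over all 32851 promoter entries of this length, 6.02% held CACGTG, 5.56% held TGTTTTG and 0.295% held both. The forkhead motif TGTTTAC, or GTAAACA on the other strand, was found in 1 of the 12 entries, 161 bases before a start of Akt1, and in 3.17% of all entries. The letters describe the sequence only.

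Within a library, counts per length of Irs2 were 2.15, 1.74 and 2.81 times those of Irs1 in vehicle skin and 4.38, 8.23 and 7.76 times in rebamipide-treated skin. The groups did not overlap, and the log2 ratio was 1.13 ± 0.34 and 2.71 ± 0.5 (SD, n = 3), a 2.98-fold difference (exact permutation p = 0.1, adjusted p = 0.125). The fat cell adaptor Irs3, a functional gene in mice, was counted with the other adaptors. It had 4.27, 8.43 and 10.3 normalized CPM in vehicle skin and 32.2, 26.9 and 37.4 in rebamipide-treated skin, with no overlap and a log2 difference of 2.07 (SE 0.376, adjusted p = 0.0177). Of the summed FPKM of the IRS family, Irs1 took 22.4% ± 2.9 in vehicle skin and 8.22% ± 1.4 in rebamipide-treated skin, whereas the shares of Irs2 (49.3% ± 8.0 and 54.2% ± 12) and Irs3 (28.3% ± 8.0 and 37.6% ± 12) overlapped between groups.

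Pik3r1 encodes the main regulatory subunit of PI3K, which docks the enzyme to phosphorylated IRS proteins (chromosome 13, 101817071 to 101904725, minus strand). It had 66.7, 125.3 and 161.3 normalized CPM in vehicle skin and 56.6, 109.9 and 147.8 in rebamipide-treated skin. The groups covered nearly the same range, and the spread within each exceeded the difference between them. The log2 difference was -0.17 (SE 0.455, adjusted p = 0.803), and it turned positive in edgeR without the third vehicle library (0.12) or without the first rebamipide library (0.13). Its ratio to the catalytic subunit Pik3ca also overlapped, with a log2 ratio of 1.15 ± 0.53 in vehicle skin and 1.62 ± 0.47 in rebamipide-treated skin (SD, n = 3, exact permutation p = 0.4).

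Akt2 had the smallest adjusted p-value of the 8 genes. It encodes the AKT kinase that serves glucose uptake in fat and muscle (chromosome 7, 27290977 to 27340251, plus strand), and it had 142.2, 185.8 and 214.5 normalized CPM in vehicle skin against 551.6, 669.8 and 762.8 in rebamipide-treated skin. The lowest rebamipide value was well above the highest vehicle value. The mean rose from 180.8 ± 36.4 to 661.4 ± 105.8 (SD, n = 3), a log2 difference of 1.87 (SE 0.266, adjusted p = 0.0107). It was positive in all 24 alternative fits, from 1.23 to 2.03. Without the third rebamipide library it was 1.76 (adjusted p = 0.0317). As for Igf1r, the edgeR call was lost without the second vehicle library (1.85, adjusted p = 0.0772) and without the second rebamipide library (1.87, adjusted p = 0.0606).

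Akt1, the more widely expressed AKT kinase with roles in growth and survival (chromosome 12, 112620255 to 112641318, minus strand), had 144.0, 112.6 and 117.2 normalized CPM in vehicle skin and 149.0, 175.5 and 184.8 in rebamipide-treated skin. The groups did not overlap in normalized CPM, but the first library of each group lay within a few CPM of the other. In FPKM the groups overlapped, and the mean was lower in rebamipide-treated skin (33.26 against 37.78). The log2 difference of 0.45 (SE 0.196, adjusted p = 0.144) was -0.19 with scaling by total counts alone, and 0.59 to 0.67 above the median of all genes under 6 scalings. The balance of the kinases could also be read within each library. Counts per length of Akt2 were 0.568, 0.948 and 1.05 times those of Akt1 in vehicle skin and 2.13, 2.19 and 2.37 times in rebamipide-treated skin. The mean log2 ratio was -0.27 ± 0.48 and 1.16 ± 0.08 (SD, n = 3), a 2.69-fold difference (exact permutation p = 0.1, adjusted p = 0.125). Of the summed FPKM of Akt1 and Akt2, Akt2 took 45.4% ± 8.0 in vehicle skin and 69.0% ± 1.2 in rebamipide-treated skin (SD, n = 3).

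Foxo1, the FOXO factor that insulin restrains in liver and fat (chromosome 3, 52175757 to 52260642, plus strand), had 93.8, 77.9 and 70.6 normalized CPM in vehicle skin and 99.9, 150.9 and 149.4 in rebamipide-treated skin. All rebamipide values were above all vehicle values in normalized CPM, the first rebamipide library by a small margin. In FPKM the groups overlapped, with 10.7 in the first rebamipide library and 13.8 in the first vehicle library. The log2 difference of 0.72 (SE 0.236) had an adjusted p-value of 0.074, and it was 0.90 with an adjusted p-value of 0.0236 without the first rebamipide library. Over the 24 alternative fits it ranged from 0.08 to 0.91. Its relative Foxo3 fell, from 163.2, 117.4 and 74.5 normalized CPM to 55.4, 37.9 and 31.6 (log2 difference -1.51, SE 0.360, adjusted p = 0.0351). Foxo1 was below Foxo3 per length in every vehicle library (0.502, 0.58 and 0.828 times) and above it in every rebamipide library (1.58, 3.48 and 4.13 times). The log2 ratio was -0.68 ± 0.37 and 1.5 ± 0.74 (SD, n = 3), a 4.54-fold difference (exact permutation p = 0.1, adjusted p = 0.125). By share of the family's FPKM, Foxo4 was the most abundant FOXO transcript on average in both groups, with 46.5% ± 13 and 64.3% ± 2.4.

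**Figure D2:**
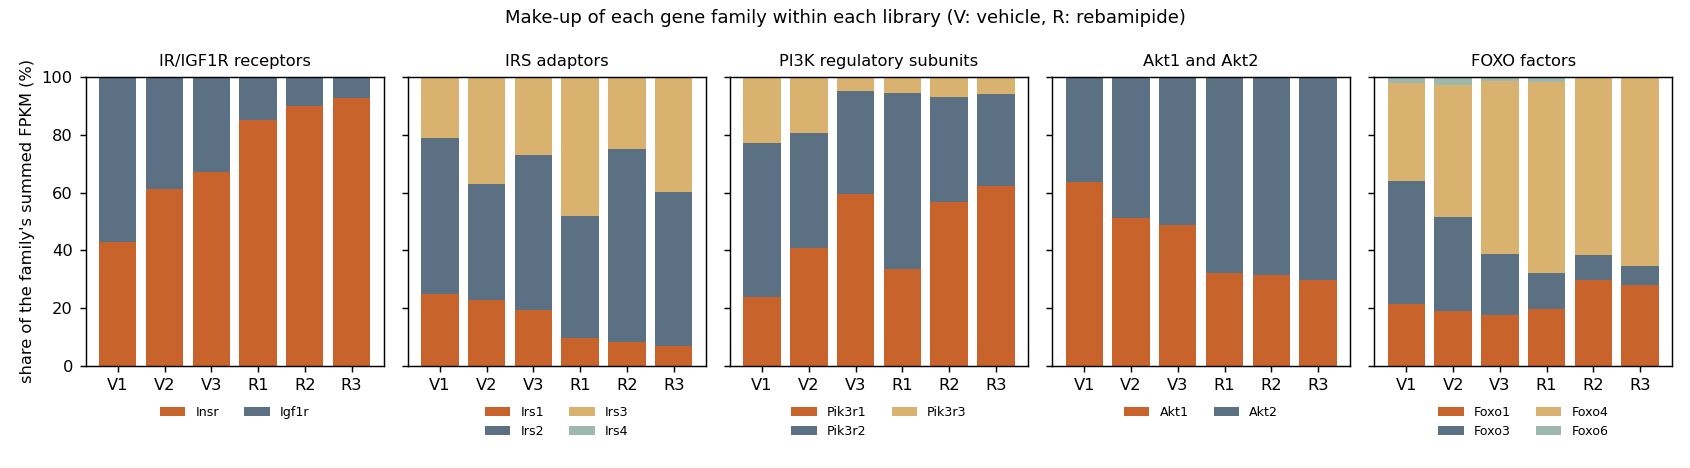
Share of each family's summed FPKM (vertical axis, percent) taken by each gene in the vehicle (V) and rebamipide (R) libraries, for receptors, IRS adaptors, PI3K regulatory subunits, Akt1 and Akt2, and FOXO factors. Insr takes 85.1% to 92.7% of the receptor pair in the rebamipide libraries against 43.0% to 67.0% in the vehicle libraries, and Akt2 takes 68.0% to 70.3% of the pair with Akt1 against 36.2% to 51.3%.

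Scaling mattered for the size of these differences, because the median of all genes itself was shifted. It was -0.175 on the log2 scale with TMM factors and -0.778 with total counts alone. Set against that median under 6 scalings, each gene stayed within a narrow range. A change of scaling moves all genes nearly alike, so this was fixed beforehand and does not test whether a gene changed. Irs2 and Akt2 lay 2.01 to 2.1 and 2.02 to 2.1 above the median, Insr 1.53 to 1.62, Foxo1 0.86 to 0.95, Akt1 0.59 to 0.67 and Irs1 0.45 to 0.51. Pik3r1 stayed at it (-0.04 to 0.06), and Igf1r lay under it by log2 differences of -1.12 to -1.05.

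**Figure D3:**
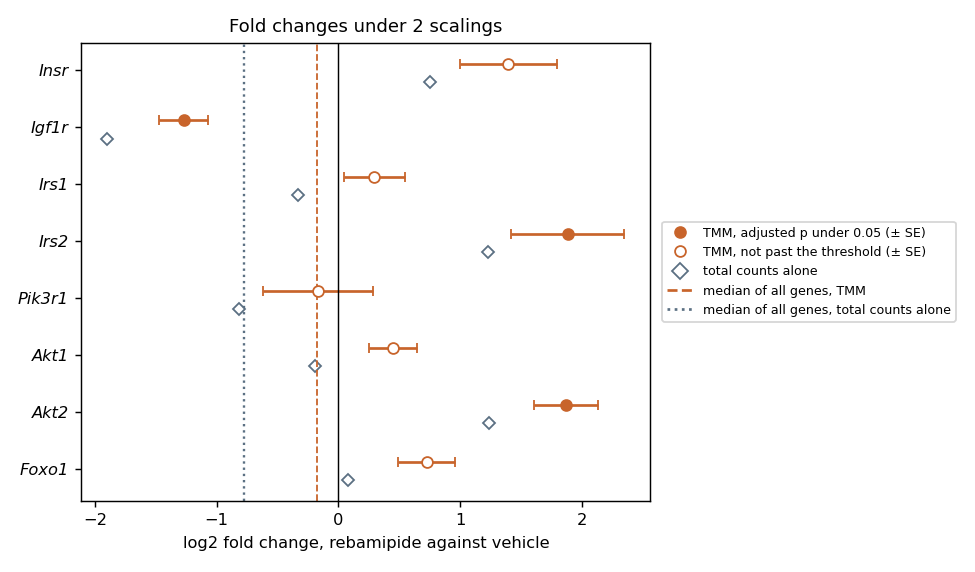
Log2 fold changes of the 8 genes, rebamipide against vehicle (horizontal axis), with TMM scaling (circles ± SE, filled where the adjusted p is under 0.05) and with total counts alone (diamonds), beside the median of all genes under each scaling (dashed and dotted lines). Irs1 and Akt1 change sign between the scalings, and every gene moves along with the median, from -0.175 to -0.778.

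The order of abundance, compared per length in FPKM, is given for each group with the overlap between neighbours. In vehicle skin Akt1 (37.78 ± 6.14 FPKM) and Akt2 (31.33 ± 5.5) led and overlapped each other, followed by Pik3r1 (14.38 ± 5.52), Foxo1 (11.59 ± 2.04), Irs2 (7.167 ± 3.16), Insr (5.545 ± 1.86), Igf1r (3.973 ± 0.579) and Irs1 (3.116 ± 0.622). From Pik3r1 down, each gene's range overlapped that of the next. In rebamipide-treated skin Akt2 led alone at 74.23 ± 5.73 FPKM, ahead of Akt1 at 33.26 ± 1.14 without overlap. Irs2 (16.83 ± 5.91), Foxo1 (12.24 ± 1.33), Insr (9.319 ± 2.35) and Pik3r1 (8.143 ± 2.93) followed with ranges that overlapped from each to the next. Irs1 (2.487 ± 0.368) and Igf1r (1.066 ± 0.169) were the lowest, each separate from its neighbours (SD, n = 3 throughout).

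The rest of the pathway was read from 7 lists, which were chosen with earlier results of these data known. Their shares describe the lists and are not a test of the pathway. They hold 98 genes, of which 92 were tested. Of these, 26 were higher (28.3%) and 3 were lower (3.26%) after rebamipide, and the median log2 change was 0.32, beside 14.1%, 6.51% and -0.17 over all tested genes. With total counts alone 14 were higher and 18 lower, and with log2(FPKM + 1) 15 and 21, where all genes gave 1258 higher and 3752 lower, and 1401 and 4809. The table's own KEGG annotation of the insulin signaling pathway held 7 of the 8 genes, all except Igf1r. Without those 7, 121 of its genes were tested, of which 33 were higher (27.3%) and 2 were lower (1.65%), with a median of 0.32, against the same shares over all genes. The whole KEGG list went from 35 higher and 2 lower to 24 and 23 with total counts alone, and to 27 and 29 with log2(FPKM + 1). The lists and the KEGG pathway share 40 genes and are not independent of each other.

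The lists are given in the order of the cascade. Upstream, Ins1 and Ins2, the insulin genes, had 0 counts in every library. None of the 9 tested ligands and binding proteins passed the test (median -0.55), where 14.1% of all tested genes were higher and 6.51% lower. The most abundant of them, Igfbp7 and Igfbp5, which bind IGFs or insulin outside the cell, had log2 differences of -0.14 (adjusted p = 0.794) and -0.48 (adjusted p = 0.624), with overlapping groups. Igf1 had 34.0, 60.0 and 95.2 normalized CPM in vehicle skin and 63.4, 33.8 and 31.9 in rebamipide-treated skin, also overlapping (-0.55, SE 0.452, adjusted p = 0.388). By qPCR in skin of separate mice, the study reported higher Igf1 with rebamipide. All 3 rebamipide libraries lay below all 3 vehicle libraries for 2 of the 9 tested genes of this list (22.2%), near the 24.0% of all tested genes.

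Among the other receptors and adaptors 4 of 10 were higher (40.0%) and none was lower, beside 14.1% and 6.51% of all tested genes, with a median of 0.89. Sh2b2 (APS), an adaptor that binds the active insulin receptor in fat cells, had 6.59, 8.33 and 9.79 normalized CPM in vehicle skin and 75.3, 139.6 and 143.0 in rebamipide-treated skin, the steepest rise of this list at 14.5-fold (log2 3.86, SE 0.339, adjusted p = 0.00939). Its relative Sh2b1 was 2.28-fold higher (adjusted p = 0.0211). The abundant Cav1, a coat protein of caveolae, had a log2 difference of 1.36 without passing the test (adjusted p = 0.0638), and the general adaptor Grb2 had -0.10 (adjusted p = 0.733).

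In the kinase module 1 of 11 genes was higher (9.09%) and none was lower, beside 14.1% and 6.51% of all tested genes (median -0.31). That gene was Mtor, the kinase shared by both mTOR complexes, with 69.5, 49.2 and 43.1 normalized CPM in vehicle skin and 150.3, 262.3 and 226.9 in rebamipide-treated skin (log2 1.98, SE 0.306, adjusted p = 0.0125). Mapkap1, a subunit of mTORC2, had a log2 difference of 0.53 (adjusted p = 0.106). None of the PI3K subunits in this list passed the test.

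Among the inhibitors 4 of 22 were higher (18.2%) and 1 was lower (4.55%), shares near the 14.1% and 6.51% of all tested genes, with a median of -0.27. The lipid phosphatases Inppl1 (SHIP2, 3.29-fold, adjusted p = 0.0129) and Inpp5k (1.66-fold, adjusted p = 0.0373), the AKT phosphatase Phlpp1 (2.21-fold, adjusted p = 0.0401) and the receptor-binding Grb14 (2.60-fold, adjusted p = 0.0418) were higher. Enpp1, a membrane protein that can bind and dampen the insulin receptor, fell from 36.6, 21.0 and 10.5 normalized CPM to 5.33, 2.65 and 1.76 (log2 difference -2.80, SE 0.629, adjusted p = 0.0297). The abundant receptor phosphatase Ptprf had a difference of similar size with a wider spread (-2.70, SE 0.915, adjusted p = 0.0807), and Trib1, a pseudokinase, had 1.21 (adjusted p = 0.0777).

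In the mTORC1 branch, which couples insulin to protein synthesis, 4 of 11 genes were higher (36.4%) and none was lower, beside 14.1% and 6.51% of all tested genes (median 0.72). Eif4ebp1, a repressor of cap-dependent translation that mTORC1 switches off, had 23.7, 29.4 and 42.8 normalized CPM in vehicle skin and 98.4, 118.2 and 139.9 in rebamipide-treated skin (log2 1.89, SE 0.283, adjusted p = 0.0118). Its relative Eif4ebp2 (1.95-fold, adjusted p = 0.0268), the mTORC1 subunit Rptor (1.94-fold, adjusted p = 0.0171) and the mTORC1 inhibitor Tsc2 (2.32-fold, adjusted p = 0.0117) were also higher. The genes that rose include both a part of mTORC1 and an inhibitor of it.

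Of the metabolic effectors 7 of 12 were higher (58.3%, beside 14.1% of all tested genes) and none was lower, with a median of 1.35. Slc2a4, the insulin-responsive glucose transporter GLUT4, had 29.0, 90.7 and 135.5 normalized CPM in vehicle skin and 373.0, 483.5 and 442.2 in rebamipide-treated skin (log2 2.35, SE 0.556, adjusted p = 0.0344). Pde3b, the phosphodiesterase through which insulin restrains lipolysis, had 15.8, 32.5 and 56.9 against 85.8, 363.7 and 456.3 normalized CPM (log2 3.11, SE 0.758, adjusted p = 0.0372). The lipogenic transcription factors Mlxipl (ChREBP, 7.63-fold, adjusted p = 0.0177) and Srebf1 (2.39-fold, adjusted p = 0.0123) and the glycogen synthase kinase Gsk3a (1.73-fold, adjusted p = 0.0450) were higher as well. Acly, which makes cytosolic acetyl-CoA for fat synthesis, had a log2 difference of 1.48 with a wide spread (adjusted p = 0.0772), and the glycogen-targeting subunit Ppp1r3c had 0.49 (adjusted p = 0.570).

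Among FOXO factors and known FOXO targets 6 of 17 were higher (35.3%) and 2 were lower (11.8%), beside 14.1% and 6.51% of all tested genes (median 0.44). Pck1, the PEPCK enzyme of glycerol and glucose synthesis, had 56.7, 67.6 and 172.9 normalized CPM in vehicle skin and 3374.4, 6378.8 and 8052.9 in rebamipide-treated skin, a 59.9-fold difference (log2 5.91, SE 0.706, adjusted p = 0.00953). Pdk4, which inhibits pyruvate dehydrogenase, was 21.4-fold higher (adjusted p = 0.0101), the mitochondrial superoxide dismutase Sod2 6.18-fold (adjusted p = 0.00939) and Txnip, an inhibitor of glucose uptake, 4.55-fold (adjusted p = 0.0273). Besides Foxo3, the stress-induced Sesn3 fell (log2 difference -1.54, adjusted p = 0.0484). These genes also have regulators other than FOXO factors. The summed adipocyte, brown adipocyte, endothelial and red blood cell markers and the mitochondrial share, given above, were also higher in all rebamipide libraries. Their part in the differences of Slc2a4, Pde3b, Pck1, Irs3, Sh2b2, Akt2 and Irs2 was not tested.

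**Figure D4:**
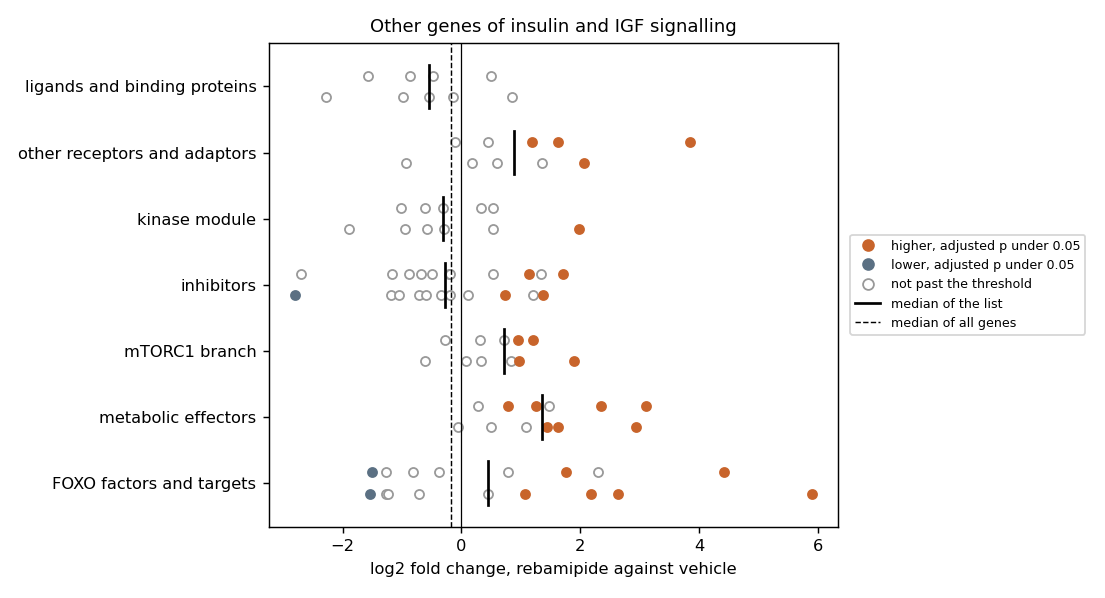
Log2 fold change, rebamipide against vehicle (horizontal axis), of the 92 tested genes of 7 insulin and IGF signalling lists, with 1 point per gene, filled where the adjusted p is under 0.05, and a bar at each list's median. Metabolic effectors have the highest median (1.35) and ligands and binding proteins the lowest (-0.55), beside -0.175 over all genes (dashed line).

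For each of the 8 genes, the 2 tested genes with the most similar profile over the 6 libraries were sought by the root mean square (RMS) difference of centred log2 normalized CPM. Akt2 was closest to Ndufa13 and Ndufs4 (RMS difference 0.0541 and 0.0564), both subunits of respiratory complex I, which had 41.3, 58.8 and 70.2 and 50.9, 73.0 and 85.0 normalized CPM in vehicle skin and rose to 167.0, 210.0 and 237.0 and to 199.0, 257.0 and 292.0. Akt2 had 375 genes within 0.25. Irs2 had only 1, Car11 (0.191), followed by Dlc1 (0.257). Insr was closest to Dram2 (0.0829) and Pex3 (0.0974), and Igf1r to the transcription factors Rfx7 (0.0702) and Zbtb1 (0.0872). Akt1 was closest to Mrpl57 (0.0232) and Zfp418 (0.0414), Foxo1 to Angel2 (0.034) and Brap (0.0442), Irs1 to Asnsd1 (0.0784) and Polr2k (0.0873), and Pik3r1 to Adam22 (0.0886) and Kctd12b (0.139). Over these 6 libraries in 2 groups, the number of genes within 0.25 ran from 1 for Irs2 and 27 for Pik3r1 to 1872 for Akt1.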

How the data were processed

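The authors deposited a table with raw read counts and FPKM for each gene and library. Per the labels, poly-A RNA was sequenced. The submitters' processing notes name fastp 0.22.0, HISAT2 2.1.0, HTSeq 0.9.1 and the build GRCm39, and the study's methods name DESeq2. The deposited counts are whole numbers per gene without normalization, and the deposited FPKM follow from them, the gene length and the summed counts in 100% of values, within 0.01% of each. Printed gene positions are those of the table. Only 579 of 21163 gene starts lay within 1000 bases of GRCm38, so the GRCm38.p6 promoters were matched by symbol and never by position.

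All 12 value columns were matched to samples by name. Replicates within a group differed by more than sampling noise (a chi-square of 79.1 to 713.6 per degree of freedom). The test between groups was that of edgeR 4.0.16 under R 4.3.3 (TMM, filterByExpr, quasi-likelihood test, Benjamini-Hochberg adjustment over 14875 genes). TMM factors were 1.21 to 1.279 in vehicle and 0.7464 to 0.9286 in rebamipide libraries. Ratios were computed per length within a library after adding 0.5 counts, and compared with an exact two-sided permutation test. The genes and lists were chosen with earlier results of these data known. Beside the 8 genes, the text names from each list the called genes of smallest p, at most 5, and the 2 with the highest FPKM, and for each of the 8 the 2 closest profiles. Igf1, Foxo4, Ins1, Ins2 and Sesn3 were named after their values were seen. Alternatives were DESeq2 1.42.0, limma-voom 3.58.1, RLE, upper quartile and total-count scaling (with and without mitochondrial genes), no filter, at least 10 counts in every library, a replicate block, a fast muscle score as covariate, limma on log2(FPKM + 1) and log2(FPKM + 0.1), the study's thresholds and leaving out each library. The study's thresholds, an absolute log2 change above 1 and an unadjusted p under 0.05, were put on the edgeR fit here, whereas the study used DESeq2. The scripts were tested on simulated data. A count of 0 allows up to 3 counts, or 0.0752 to 0.0917 CPM without the TMM factor, for counting error only. Some genes that the naming rule would give are not reported here. Data of the study's other experiments were not analysed here.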

Additional observations from a re-analysis of the deposited data

How the results depend on the processing

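The difference kept its direction in all 24 alternative fits for Insr, Igf1r, Irs2, Akt2 and Foxo1, and in all 7 alternatives for each ratio. It reversed for Irs1 with total counts alone (-0.33), nuclear total counts alone (-0.10), log2(FPKM + 1) (-0.23) and log2(FPKM + 0.1) (-0.31), for Akt1 with total counts alone (-0.19), log2(FPKM + 1) (-0.17) and log2(FPKM + 0.1) (-0.17), and for Pik3r1 without the third vehicle library (0.12 in edgeR, 0.15 in DESeq2) or the first rebamipide library (0.13 and 0.14), with -0.49 to 0.15 over all fits with 1 library left out. None of those values passed the test. Members called higher numbered 1 with total counts alone, nuclear total counts alone or the muscle covariate, and 0 to 5 with 1 library left out, and members called lower 0 to 1. Pathway genes called higher were 14 (total counts), 16 (nuclear total counts) and 15 (both FPKM fits), and 0 to 30 in edgeR and 19 to 38 in DESeq2 with 1 library left out. Pathway genes called lower were 10 (DESeq2), 5 (upper quartile), 18 (total counts), 15 (nuclear total counts), 6 (at least 10 counts), 21 and 20 (FPKM fits), 8 (study thresholds), and 0 to 23 with 1 library left out. KEGG genes called higher were 0 to 43 in edgeR and 30 to 58 in DESeq2 with 1 library left out. KEGG genes called lower were 11 (DESeq2), 4 (limma-voom), 5 (upper quartile), 23 (total counts), 15 (nuclear total counts), 1 (no filter), 9 (at least 10 counts), 1 (replicate block), 29 (both FPKM fits), 6 (study thresholds), and 0 to 24 with 1 library left out. Counts over all genes moved too: 968 were called lower in the report's fit, 2535 of 17817 (DESeq2), 1033 (limma-voom), 1180 (upper quartile), 3752 (total counts), 2331 (nuclear total counts), 802 of 17835 (no filter), 1512 of 12659 (at least 10 counts), 855 (replicate block), 4809 and 4777 (FPKM fits), 2161 (study thresholds), and 0 to 4225 with 1 library left out. Called higher were 2093, against 1258 (total counts), 1449 (nuclear total counts), 1401 and 1391 (FPKM fits), and 0 to 3608 with 1 library left out. The causes were not tested.

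Same-numbered libraries did not deviate together (correlations of 0.003, -0.04 and 0.018), so they share only a number. With a replicate block, Insr (adjusted p = 0.0228), Igf1r and Akt2 were called and Irs2 was not (1.87, adjusted p = 0.066), and 2287 of 14875 genes were called against 3061 without it. With 3 libraries a group, ratios cannot reach p under 0.1, and DESeq2 called 4 of the 8 genes and 5184 of 17817 genes in all, where edgeR called 3 and 3061 of 14875.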
